A study of Mus musculus with 2 samples.

Results

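The BCL2 family sets the threshold at which a cell permeabilizes its mitochondria and dies by apoptosis. The 10 genes described here were chosen by name, with earlier results of these data known. All 10 were among the 19169 genes of the table. They fall into 4 survival members (Bcl2, Bcl2l1, Mcl1 and Bcl2a1b), 2 effector members (Bax and Bak1) and 4 BH3-only members (Bid, Bcl2l11, Bbc3 and Pmaip1).

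As background, Bax and Bak1 encode the proteins that open pores in the outer mitochondrial membrane and so release cytochrome c. BCL2, BCL-XL (from Bcl2l1), MCL1 and A1 (from Bcl2a1b) hold those effectors and their activators in check, whereas BIM (from Bcl2l11), PUMA (Bbc3), NOXA (Pmaip1) and BID carry death signals through a short helix, the BH3 domain, that fits a groove on the survival proteins. Lymphocytes and myeloid cells are known to depend on particular members for survival, NOXA acts chiefly on MCL1 and A1, and PUMA and NOXA were first known as products of p53 target genes.

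The study profiled dissociated gastrocnemius muscle from male mice, either wild type (WT) or carrying a knockout (KO) of Gsdme, which encodes a pore-forming gasdermin. The methods name C57BL/6J for the WT mice and refer to earlier work for the KO mice. Every animal had been injured with cardiotoxin (CTX), and muscle was taken on day 14. The methods give 5 mice per genotype and do not say whether they were pooled, and the table holds 1 library for each genotype, so no test between genotypes was possible and all intervals below cover counting error only. RNA was captured with a droplet kit that reads the 5′ end of each molecule and counts unique molecular identifiers (UMIs), so counts do not grow with RNA length and genes may be compared in counts per 1000000 UMIs of a cell type (CPM).

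The deposited table gave 6354 cells and 44758516 UMIs under the WT label and 7078 cells and 50930008 UMIs under the KO label, with medians of 5740 and 5962.5 UMIs per cell. Only 4 cell barcodes occurred in both. Gsdme itself had 225 UMIs (5.03 CPM) in the library labelled WT and 237 (4.65 CPM) in that labelled KO, giving a log2 ratio of -0.11 (95% interval, -0.38 to 0.16). Gsdme RNA therefore did not tell the libraries apart, the deleted part of the gene is not given in the sources used here, and each direction below rests on the labels alone. Cells were clustered and named from marker genes, and 10 named cell types held at least 50 cells in each library. They were fibro-adipogenic progenitor (FAP)-like cells (1425 labelled WT and 1872 labelled KO), endothelial-like cells (1231 and 1207), macrophage-like cells (826 and 1000), pericyte-like cells, which include smooth muscle (519 and 610), tenocyte-like cells (427 and 377), muscle stem cell (MuSC)-like cells (248 and 249), Schwann-like cells (197 and 156), dendritic-like cells (115 and 128), T-like cells (81 and 86) and lymphatic-endothelial-like cells (83 and 79). All 12 macrophage, 10 tenocyte, 9 Schwann and 9 T cell markers had their highest level in the cells so named, against 5 of 9 for the dendritic-like cells, the weakest of the 10 matches. Another 2145 cells lay in clusters that stayed unnamed. The larger pericyte-like cluster, led by Rgs5, Abcc9 and Kcnj8, held 8247 and 9176 CPM of 11 endothelial markers summed, none of them at 0. Endothelial-like cells held 11662 and 12840 CPM of them. For Bcl2l1, Pmaip1 and the survival to death balance, pericyte-like values without this cluster are also given. Other pericyte-like values include it.

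The family is held together by the BH3 core, a leucine followed after any 3 residues by glycine or alanine and then aspartate. In the coding sequences of the GENCODE annotation of mm10, the build named in the submitters' processing notes, this pattern occurred once in 8 of the members. The 30 coding bases around it are shown 5′ to 3′ because they are what the guardians, the effectors and the BH3-only members share, with the codons of the leucine and of the glycine or alanine plus aspartate in capitals.
Bcl2: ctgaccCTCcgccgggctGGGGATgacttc
Bcl2l1: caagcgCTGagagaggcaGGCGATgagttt
Mcl1: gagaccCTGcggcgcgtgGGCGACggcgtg
Bax: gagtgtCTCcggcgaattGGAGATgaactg
Bak1: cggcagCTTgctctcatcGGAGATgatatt
Bid: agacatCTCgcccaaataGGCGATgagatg
Bcl2l11: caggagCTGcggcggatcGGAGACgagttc
Bbc3: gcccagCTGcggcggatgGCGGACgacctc

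Bbc3 was the 1 gene of these 8 with an alanine codon in place of glycine. Pmaip1 had 2 matches, and its sequence is not shown. Bcl2a1b had no match, which says only that these letters are not in its coding sequence. In mm10 the survival members lie at chr1:106538178-106714274 (Bcl2, minus strand), chr2:152780668-152831728 (Bcl2l1, minus strand), chr3:95658788-95663176 (Mcl1, plus strand) and chr9:89199209-89207827 (Bcl2a1b, plus strand). Bax and Bak1 lie at chr7:45461697-45466898 and chr17:27019810-27029009, both on the minus strand. Among the BH3-only genes, Bid lies at chr6:120891930-120916853 on the minus strand, Bcl2l11 at chr2:128126038-128162547 and Bbc3 at chr7:16308393-16318205, both on the plus strand.

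Bcl2a1b has near-identical copies on chromosome 9, Bcl2a1a and Bcl2a1d, which matter because counting can split reads between them. All 3 have 516 coding bases, and Bcl2a1b was identical to Bcl2a1a at 97.9% and to Bcl2a1d at 98.8% of them. Of all windows of 90 bases along the Bcl2a1b transcript, 17.7% also occurred in that of Bcl2a1a and 36.1% in that of Bcl2a1d, so the level of any 1 copy is uncertain. The first 30 coding bases of each follow, with the bases at which the copies differ in capitals (5 here, of 12 in the whole coding sequence).
Bcl2a1a: atgGctgagtCTgagCtcatgCatatccac
Bcl2a1b: atgGctgagtACgagTtcatgTatatccac
Bcl2a1d: atgTctgagtACgagTtcatgTatatccac

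Levels across cell types were described first, since the cell types were made from these cells and their differences are no test. Mcl1, which encodes a short-lived survival protein, was the most abundant member in each of the 10 cell types and both libraries. Its lowest level was in T-like cells (539 CPM labelled WT and 451 CPM labelled KO) and its highest in macrophage-like cells (1735 and 1737 CPM). The other survival genes were lower and more selective. Bcl2l1 was highest in endothelial-like cells in both libraries (101 and 64.7 CPM), with pericyte-like (70.3 and 46.4 CPM) and lymphatic-endothelial-like cells (63.8 and 57.7 CPM) also high in both. FAP-like cells held 9.05 and 6.97 CPM of it and MuSC-like cells 10.8 and 4.06 CPM, far below the endothelial-like cells. Of the pericyte-like Bcl2l1 UMIs, 359 of 385 labelled WT and 269 of 290 labelled KO lay in the cluster led by Rgs5, rich in endothelial RNA.

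**Figure D1:**
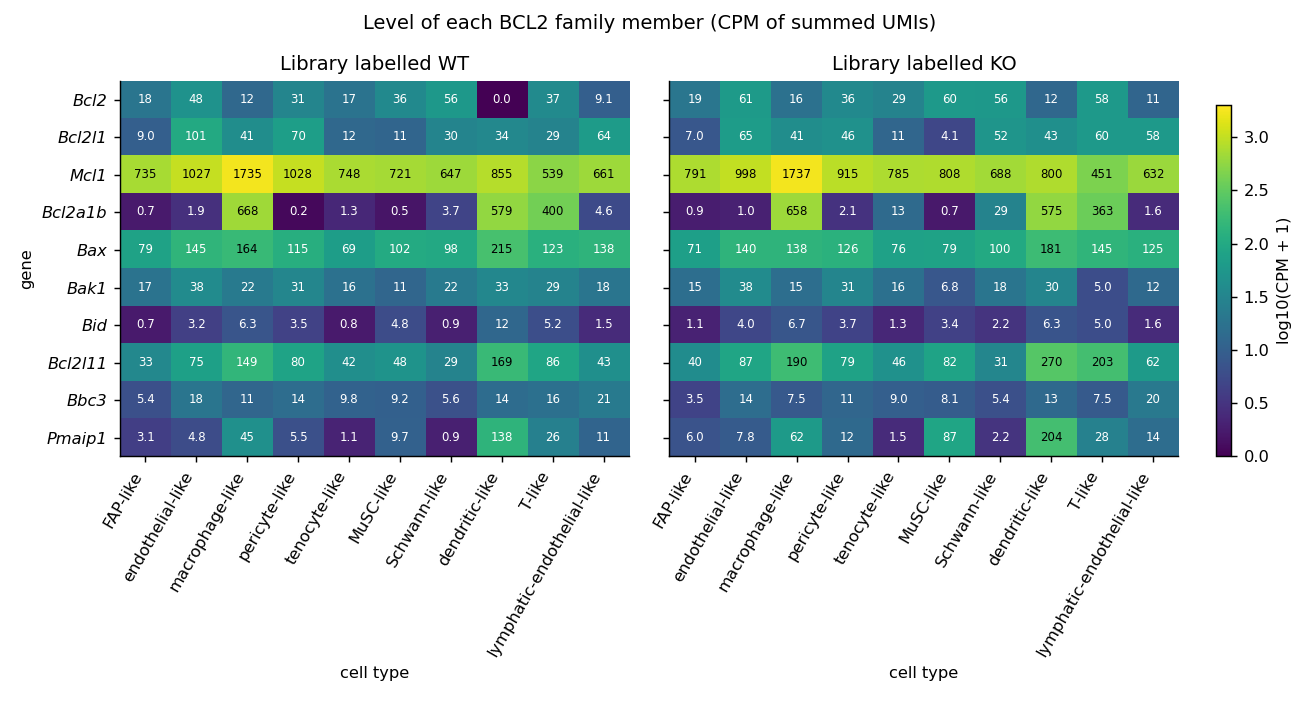
Level of each member in CPM (numbers in the cells, colour on a log10 scale) for 10 cell types in the library labelled WT (left) and that labelled KO (right). The row of Mcl1 is the brightest throughout, Bcl2a1b is brightest in macrophage-like, dendritic-like and T-like cells, and Pmaip1 differs most between the panels in MuSC-like cells, at 9.69 and 87.3 CPM.

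Bcl2, the founding member, was spread over unlike cells. In the library labelled WT it stood at 56.5 CPM in Schwann-like, 47.7 CPM in endothelial-like, 36.6 CPM in T-like and 35.5 CPM in MuSC-like cells, and the intervals of the first and second of these overlapped (43.2 to 72.5 and 42.9 to 52.9 CPM). Labelled KO, endothelial-like (61.2 CPM), MuSC-like (59.6 CPM), T-like (57.6 CPM) and Schwann-like cells (56.3 CPM) could not be ordered within counting error. Macrophage-like cells held only 12 and 16.2 CPM. Dendritic-like cells labelled WT had no Bcl2 UMI in 115 cells. By a limit of 3 counts, this allows up to 2.61% of cells with a UMI and a level of up to 3.15 CPM. Those labelled KO had 13 UMIs in 10 cells (11.6 CPM), a measured level 3.69-fold that limit. With counting error in both libraries the log2 ratio could be as low as 1.38.

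Bcl2a1b, an NF-kB-responsive survival gene of blood cells, was read mainly in immune types. Its level was 668 and 658 CPM in macrophage-like cells, 579 and 575 CPM in dendritic-like cells and 400 and 363 CPM in T-like cells, labelled WT and KO. FAP-like cells, which should lack it, had 0.717 and 0.856 CPM. A Bcl2a1b UMI was seen in 49.2% and 51.7% of macrophage-like cells at medians of 5182 and 5267 UMIs per cell, against 0.491% and 0.748% of FAP-like cells at 7584 and 8514 UMIs. With every cell thinned to 1000 UMIs the shares in macrophage-like cells were 30.2% and 31.1%, and in FAP-like cells 0% and 0.107%.

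Within the macrophage-like cells the gene split sharply by cluster. The larger cluster, led by Ms4a7, C1qb and Ccl3, held 811 CPM labelled WT and 771 CPM labelled KO, whereas the cluster led by Folr2, Cd209f and Clec10a, markers of tissue-resident macrophages, held 23.7 and 59.6 CPM. Mcl1 did not split that way, at 1766 and 1736 CPM in the former and 1591 and 1744 CPM in the latter. The copies Bcl2a1d (203 and 217 CPM) and Bcl2a1a (45.6 and 52.5 CPM) were also read in macrophage-like cells, and in dendritic-like cells Bcl2a1d reached 517 and 662 CPM, next to the level of Bcl2a1b itself.

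Among the effectors, Bax was several times as abundant as Bak1 in every type. Bax was broad, from 68.5 CPM in tenocyte-like to 215 CPM in dendritic-like cells labelled WT and from 71.1 CPM in FAP-like to 181 CPM in dendritic-like cells labelled KO. Bak1 was highest in endothelial-like cells (38.1 and 38.5 CPM) and low in MuSC-like cells (11.3 and 6.77 CPM). Outside the 10 named types, an unnamed cluster led by Lyz1, Retnla and Ccl6 held 81.6 CPM of Bak1 labelled WT and 48.9 CPM labelled KO, above each of the named types compared.

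BIM RNA was the most abundant BH3-only transcript in each type and library but the MuSC-like cells labelled KO, and its highest levels were in immune cells. Bcl2l11 stood at 169 and 270 CPM in dendritic-like, 149 and 190 CPM in macrophage-like and 86.3 and 203 CPM in T-like cells, against 28.7 and 31.4 CPM in Schwann-like cells, the lowest of the 10. Pmaip1, the NOXA gene, had a wider spread, from 138 and 204 CPM in dendritic-like and 44.7 and 62.4 CPM in macrophage-like cells down to 0.926 CPM in Schwann-like cells labelled WT and 1.53 CPM in tenocyte-like cells labelled KO. Bbc3 stayed between 3.54 and 21.3 CPM and was highest in lymphatic-endothelial-like cells in both libraries. Bid was the scarcest member, with 133 and 156 UMIs in all cells, and its type of highest level could not be fixed at that depth.

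The 5 smaller named types had fewer than 50 cells in at least 1 library and are given as levels only. NK-like cells (32 labelled WT and 28 labelled KO) held the highest Bcl2l11 level of any named type, at 368 CPM (95% interval, 277 to 479) and 605 CPM (477 to 758). Neutrophil-like cells held 245 and 201 CPM of Bcl2a1b and 1073 and 1069 CPM of Mcl1. B-like cells held 719 and 582 CPM of Mcl1 with 37.4 and 25.7 CPM of Bcl2a1b. Mature-muscle-like cells had 325 and 180 CPM of Mcl1, and mast-like cells 883 and 1637 CPM from 27 and 38 UMIs.

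Summed by role, the survival UMIs were mostly those of Mcl1 in stromal cells and were shared with Bcl2a1b in immune cells. Mcl1 made up 96.4% and 96.7% of the survival UMIs in FAP-like cells and 96.1% and 93.7% in tenocyte-like cells. Its share was 70.7% and 70.9% in macrophage-like, 58.3% and 56.0% in dendritic-like and 53.6% and 48.4% in T-like cells. On the death side Bax gave 57.2% and 52.3% of the UMIs in FAP-like cells and 37.1% and 25.7% in dendritic-like cells, where Bcl2l11 gave 29.1% and 38.4%. The death UMIs of MuSC-like cells differed in make-up between the libraries, with Bax at 55.2% labelled WT and 29.5% labelled KO.

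**Figure D2:**
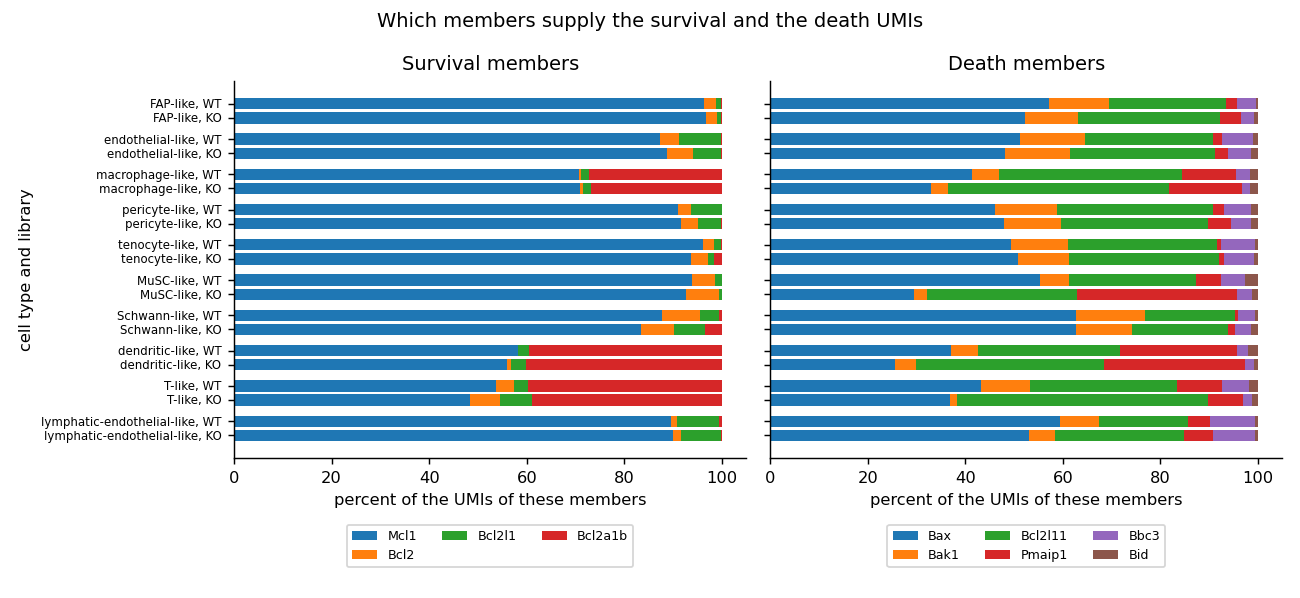
Share of the survival UMIs (left) and of the death UMIs (right) that each member supplied, in percent, by cell type and library. Mcl1 fills over 93% of the survival bars of FAP-like and tenocyte-like cells, Bcl2a1b takes much of those of macrophage-like, dendritic-like and T-like cells, and Pmaip1 widens in the MuSC-like bar labelled KO.

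Genes whose levels followed a member over the 20 combinations of cell type and library were listed for the members that spanned at least 4-fold, using Pearson's r of log2(CPM + 10), as a description of points that share libraries and clusters. Bcl2a1b was closest to Ptpn6 (r = 0.99), Pik3r5 (0.99) and Nckap1l (0.99). Pmaip1 was closest to Nfkbie (0.98), Riok3 (0.91) and Relb (0.91), and Bcl2l11 to Nfkbid (0.93), Cysltr1 (0.90) and Hlcs (0.90). For the remaining survival genes, Bcl2l1 was closest to Map3k11 (0.92), Ppp1r18 (0.91) and Rassf3 (0.91), and Bcl2 to Tnrc6b (0.87), Fkbp3 (0.87) and Gabbr1 (0.86). The low members gave weaker or less certain matches, with Bid closest to Btg1 (0.91), Grb2 (0.90) and Furin (0.89), Bak1 to Lmo1 (0.81), Ube2l6 (0.81) and Sema7a (0.81), and Bbc3 to Itga3 (0.81), 3010003L21Rik (0.79) and St8sia6 (0.78).

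The libraries were then compared within each type. A gene with at least 20 UMIs over both libraries in a type was called where its CPM ratio reached 1.5-fold and the exact 95% interval of the UMI share lay on that side of 1, a rule about these 2 libraries and not a test of genotype. Of 100 pairs of member and type, 83 had enough UMIs, and 12 were called higher and 5 lower in the library labelled KO. These counts have to be read against the same rule over all genes. FAP-like cells had 3.48% of 12653 genes called higher and 6.33% lower, with 1 of 10 members each way. In endothelial-like cells the shares were 3.69% and 3.72% of 11543 genes, again with 1 of 10 members each way. Macrophage-like cells had 3.99% of 10459 genes called higher, with no member, and 6.46% lower, with 1 of 10 members.

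Pericyte-like cells had 4.22% of 11805 genes called higher and 3.68% lower, with 1 of 9 members each way. Tenocyte-like cells had 6.49% of 11120 genes called higher, with 2 of 8 members, and 3.70% lower, with none. The largest shares were in MuSC-like cells, at 10.5% of 8942 genes higher, with 3 of 8 members, and 7.21% lower, with 1 member. Schwann-like cells had 5.29% and 4.29% of 9037 genes called higher and lower, with 2 of 7 members and none. Dendritic-like cells had 7.08% and 5.19% of 6667 genes, with 1 of 8 members and none. In T-like cells 5.30% and 8.19% of 5154 genes were called, with 1 of 7 members higher and none lower, and in lymphatic-endothelial-like cells 6.51% and 3.39% of 6851 genes, with none of 6 members. With so few members, 1 call each way in a type is no result about the family. The median log2 ratio of the members ran from -0.11 in lymphatic-endothelial-like to 0.24 in T-like cells, and that of all genes from -0.06 to 0.08.

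**Figure D3:**
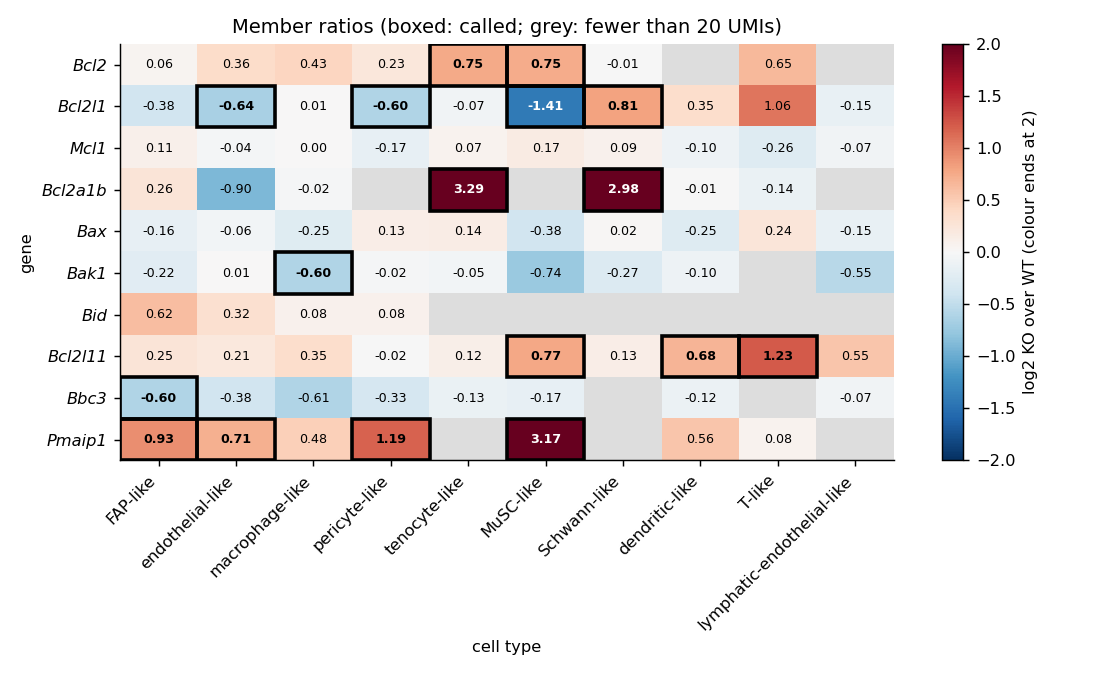
Log2 ratio of each member, library labelled KO over that labelled WT, in 10 cell types, with called pairs boxed and pairs under 20 UMIs in grey. Bcl2l1 is boxed both below 0 (endothelial-like, pericyte-like and MuSC-like) and above 0 (Schwann-like), and the Mcl1 and Bax rows hold no box.

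Mcl1 and Bax, the most abundant survival and death members, were called in no type. For Mcl1 the log2 ratio was 0.11 (95% interval, 0.07 to 0.15) in FAP-like, 0.0023 (-0.04 to 0.05) in macrophage-like and -0.17 (-0.22 to -0.11) in pericyte-like cells. The widest value, in T-like cells, was -0.26 (-0.55 to 0.04). A 1.5-fold difference of Mcl1 thus lay outside the counting interval in FAP-like, macrophage-like and pericyte-like cells. Bax ran from -0.38 (-0.73 to -0.04) in MuSC-like to 0.24 (-0.34 to 0.83) in T-like cells.

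Bcl2l1, which encodes BCL-XL, was lower in vascular cells of the library labelled KO. Endothelial-like cells had 761 UMIs (101 CPM; 94.0 to 108) labelled WT and 456 (64.7 CPM; 58.9 to 71.0) labelled KO, giving a log2 ratio of -0.64 (-0.81 to -0.47). The intervals of the 2 libraries did not overlap. Both endothelial-like clusters showed it, the one led by Flt1, Sox17 and Ier5l at -0.63 (-0.82 to -0.44) and the one led by Aplnr, Pdgfb and Sox18 at -0.68 (-1.06 to -0.32), and the share of cells with a UMI was 39.3% and 27.8%. Lymphatic-endothelial-like cells gave -0.15 (-0.82 to 0.53), an interval that holds both no difference and the value of the endothelial-like cells.

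Pericyte-like cells went the same way, with 70.3 CPM labelled WT and 46.4 CPM labelled KO, giving a log2 ratio of -0.60 (-0.83 to -0.38). The cluster led by Rgs5, rich in endothelial RNA and with medians of 13420 and 13465 UMIs per cell, gave -0.61. The cluster led by Acta2, Myh11 and Tagln, at 2134 and 2314 CPM of the endothelial markers, had 26 and 21 UMIs and gave -0.48 (-1.38 to 0.41). The call was therefore lost without the former cluster, and the part of endothelial RNA in it was not tested. In MuSC-like cells Bcl2l1 had 20 UMIs labelled WT and 6 labelled KO, giving a log2 ratio of -1.41 (-3.01 to -0.04) that passed the UMI minimum through the higher library.

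Immune and glial cells did not share that direction. Schwann-like cells had 32 UMIs (29.6 CPM) labelled WT and 48 (51.9 CPM) labelled KO, giving a log2 ratio of 0.81 (0.14 to 1.5), with 12 and 28 of these UMIs in the cluster led by Col20a1, Bche and Ajap1. T-like cells had 11 and 24 UMIs, a ratio of 1.06 whose interval reached below 0 (-0.02 to 2.24). Macrophage-like cells were level at 40.6 and 40.8 CPM. Whether the ratios of the types differ was not tested, since each type has 1 library per genotype.

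**Figure D4:**
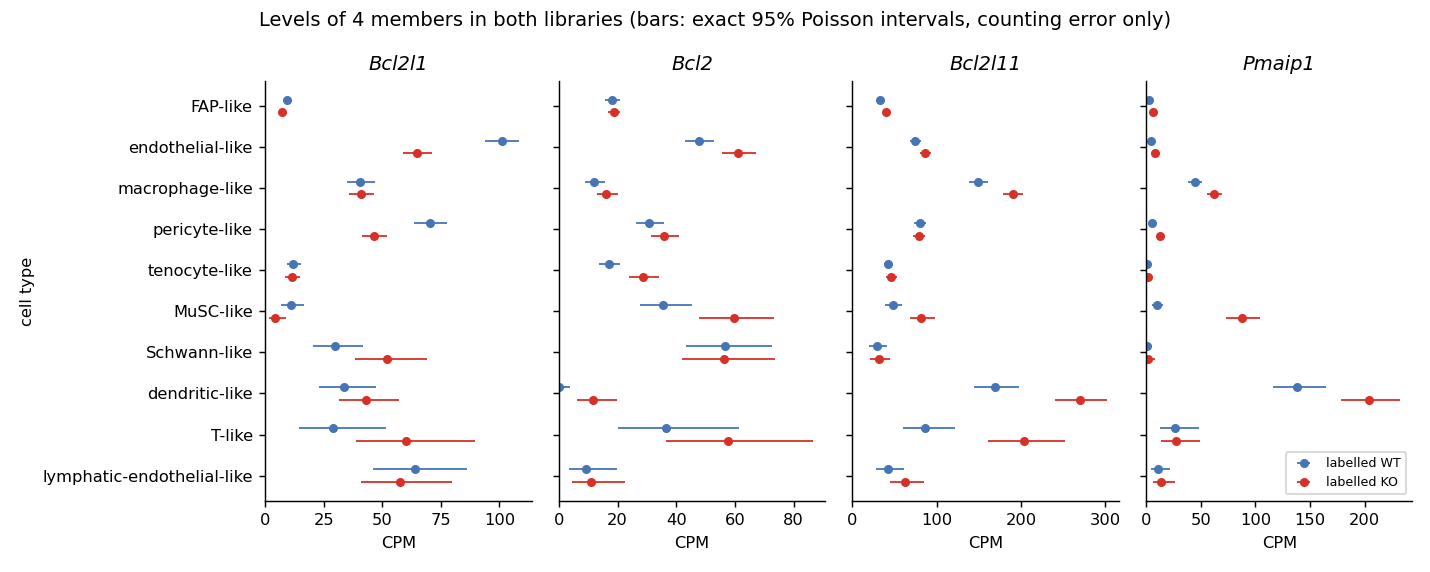
Levels in CPM of Bcl2l1, Bcl2, Bcl2l11 and Pmaip1 (each panel from 0, own scale) in 10 cell types, points for the library labelled WT (blue) and that labelled KO (red), bars for exact 95% Poisson intervals. The Bcl2l1 points of endothelial-like cells lie at 101 and 64.7 CPM with no overlap, and the Pmaip1 points of MuSC-like cells at 9.69 and 87.3 CPM.

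Bcl2 leaned upward. It was called higher in tenocyte-like cells, at 17.0 CPM (13.7 to 20.9) labelled WT and 28.6 CPM (23.9 to 33.9) labelled KO, giving a log2 ratio of 0.75 (0.35 to 1.16). MuSC-like cells gave nearly the same ratio, 0.75 (0.27 to 1.23), from 66 and 88 UMIs. Endothelial-like cells, at 47.7 and 61.2 CPM, had a log2 ratio of 0.36 (0.16 to 0.57), above 0 but short of 1.5-fold. Of 8 types with enough UMIs, 7 had a ratio above 0 and Schwann-like cells were level at -0.01 (-0.57 to 0.55). The share of all genes with such a run was not computed. In endothelial-like cells, then, RNA for 1 BCL2-type guardian stood lower and that for another somewhat higher in the library labelled KO.

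Bcl2a1b was level where it is abundant, with log2 ratios of -0.02 (-0.09 to 0.05) in macrophage-like, -0.01 (-0.18 to 0.16) in dendritic-like and -0.14 (-0.48 to 0.20) in T-like cells. The level value of the macrophage-like cells joined unlike clusters. Their cluster led by Ms4a7 gave -0.07, whereas the small pool in the cluster led by Folr2 went from 19 to 51 UMIs, giving a log2 ratio of 1.33 (0.54 to 2.17). The unnamed cluster led by Lyz1 had 522 and 1017 UMIs, or 513 and 815 CPM.

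The 2 calls of Bcl2a1b in cells that should lack it rested on few cells. Tenocyte-like cells had 7 UMIs labelled WT and 59 labelled KO, and 1 of the 4 cells with a UMI labelled KO held 42 of them. Schwann-like cells had 4 and 27 UMIs, and 1 cell labelled KO held 24. Without the cell richest in the gene in each library the log2 ratio went from 3.29 to 2.31 in tenocyte-like cells, still called, and from 2.98 to 1.82 in Schwann-like cells, where it was no longer called. Both passed the UMI minimum only through the higher library. The summed level of 12 macrophage markers in these types was 73.0 and 98.1 CPM (tenocyte-like) and 47.2 and 121 CPM (Schwann-like), with none of the 12 at 0 in tenocyte-like cells and 1 and 2 at 0 in Schwann-like cells, against 15916 and 15674 CPM in macrophage-like cells. Its part in the Bcl2a1b counts was not tested.

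Among the BH3-only genes, Bcl2l11 was above 0 in 9 of the 10 types, with pericyte-like cells level at -0.02 (-0.20 to 0.17). Among the 4195 genes with 20 UMIs in each of the 10 types, 9.89% were higher in the library labelled KO in at least 9 types, and 1 of the 4 members measured that deeply was among them, so a run of this length is common here. The share lower in at least 9 types was 12.6%, with no member.

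Its calls were in T-like, MuSC-like and dendritic-like cells. T-like cells had 33 Bcl2l11 UMIs (86.3 CPM; 59.4 to 121) labelled WT and 81 (203 CPM; 161 to 252) labelled KO, giving a log2 ratio of 1.23 (0.63 to 1.86), and the share of cells with a UMI was 27.2% and 48.8%. Dendritic-like cells had 161 UMIs (169 CPM) and 302 UMIs (270 CPM), giving a log2 ratio of 0.68 (0.40 to 0.96). MuSC-like cells had 47.9 and 81.9 CPM and gave 0.77 (0.37 to 1.19), although the share of cells with a UMI was 25% and 25.3%, and the ratio of means over cells was 0.30. Macrophage-like cells gave 0.35 (0.21 to 0.49), with 0.39 (0.24 to 0.55) in the cluster led by Ms4a7 and -0.07 (-0.49 to 0.36) in that led by Folr2.

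Pmaip1 was the member with the most calls in 1 direction, called in 4 of the 7 types that had enough UMIs. It was above 0 in all 7, a run whose share over all genes was not computed. Its largest difference was in MuSC-like cells, the precursors of new muscle fibers. They had 18 UMIs in 9 of 248 cells labelled WT (9.69 CPM; 5.74 to 15.3) and 129 UMIs in 57 of 249 cells labelled KO (87.3 CPM; 72.9 to 104), giving a log2 ratio of 3.17 (2.45 to 3.97). The gene passed the UMI minimum there through the library labelled KO. The richest cell labelled KO held 23 of the 129 UMIs, and without the richest cell of each library the ratio was 3.62. Bcl2a1b, one of the partners of NOXA, had 1 UMI in each library in these cells, and Mcl1, the other, stood at 721 and 808 CPM.

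The MuSC-like cells of the 2 libraries also differed in other ways. Pax7, a stem cell marker, stood at 156 and 288 CPM, and Myod1, an activation factor, at 319 and 539 CPM, whereas Myog, a gene of differentiating cells, stood at 266 and 162 CPM. Myog UMIs came from 15 cells labelled WT and 5 labelled KO. In the cells with no Myog UMI the Pmaip1 level was 5.72 CPM (2.62 to 10.9) in 233 cells labelled WT. It was 73.1 CPM (59.7 to 88.7) in 244 cells labelled KO, and these intervals did not overlap. These were most of the MuSC-like cells, and the part of the Pax7, Myod1 and Myog differences in the Pmaip1 value was not tested. The early response list, genes induced within minutes by stress or dissociation, had 9 of 12 genes called higher in MuSC-like cells. Hspa1b stood at 725 and 2850 CPM and Egr1 at 1400 and 3067 CPM. The part of this list in the Pmaip1 value was not tested.

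Smaller Pmaip1 differences appeared in stromal and vascular cells at low levels. FAP-like cells had 35 UMIs (3.13 CPM; 2.18 to 4.36) and 98 UMIs (5.99 CPM; 4.86 to 7.30), giving a log2 ratio of 0.93 (0.36 to 1.53), with 0.96 in the cluster led by Cxcl14 and 0.89 in that led by Pi16. Pericyte-like cells gave 1.19 (0.56 to 1.85) from 30 and 78 UMIs, of which 30 and 75 lay in the cluster led by Rgs5, rich in endothelial RNA, and none and 3 in the other. Endothelial-like cells gave 0.71 (0.08 to 1.36) from 36 and 55 UMIs, and 0.24, not called, at a clustering resolution of 1.2. With 10 CPM added to both levels these 3 ratios were 0.28, 0.54 and 0.27, and none was called.

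Among myeloid cells Pmaip1 was abundant and its ratios were under the fold. Dendritic-like cells gave 0.56 (0.24 to 0.88) and macrophage-like cells 0.48 (0.22 to 0.74). The cluster of macrophage-like cells led by Folr2 stood out with 26 and 64 UMIs, giving a log2 ratio of 1.2 (0.52 to 1.92), against 0.34 (0.06 to 0.63) in that led by Ms4a7.

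Bbc3 and Bak1 had ratios mostly below 0, in runs whose share over all genes was not computed. Bbc3, the PUMA gene, was below 0 in all 8 types that had enough UMIs and was called in FAP-like cells, at 60 UMIs (5.37 CPM) and 58 UMIs (3.54 CPM), giving a log2 ratio of -0.60 (-1.15 to -0.06). That call was lost without integration (-0.49), with doublets left out (-0.57), with means over cells (-0.40) and with thinning (-1.08). It was also lost with 10 CPM added (-0.18) and at a fold of 2. Macrophage-like cells gave -0.61 with an interval that reached 0 (-1.24 to 0.02). Bak1 was below 0 in 8 of 9 types and was called in macrophage-like cells, at 97 UMIs (22.0 CPM) and 78 UMIs (14.5 CPM). The log2 ratio there was -0.60 (-1.05 to -0.15). This call was lost at a resolution of 0.4 (-0.57), with means over cells (-0.49), with 10 CPM added (-0.38) and at a fold of 2. Bid had enough UMIs in only 4 types and was called in none, with an interval in FAP-like cells of -0.65 to 2.03.

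The balance of survival over death UMIs, on a log2 scale, ranked the cell types in much the same way in both libraries. It was highest in macrophage-like (2.63 and 2.55), tenocyte-like (2.49 and 2.49) and FAP-like cells (2.46 and 2.59) and, with Bcl2a1b as the only A1 copy counted, lowest in dendritic-like cells (1.34 and 1.02). With Bcl2a1a and Bcl2a1d added, dendritic-like cells stood at 1.85 and 1.67 and were no longer the lowest, lymphatic-endothelial-like cells having 1.67 and 1.58. As a plain ratio, macrophage-like cells held 6.17 and 5.85 survival UMIs per death UMI and dendritic-like cells 2.53 and 2.03. RNA balance is not protein balance, since MCL1 and NOXA proteins are short-lived.

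Between the libraries the balance was lower labelled KO in 7 of the 10 types, but not all of these intervals lay below 0. Macrophage-like cells, at -0.08 (-0.18 to 0.02), and lymphatic-endothelial-like cells, at -0.09 (-0.47 to 0.28), had intervals that held 0, as did endothelial-like cells (below). How often such a run occurs for other sums of genes was not computed. Dendritic-like cells differed by -0.32 (-0.50 to -0.13; -0.18 with the other A1 copies and -0.11 at a clustering resolution of 0.4), MuSC-like cells by -0.34 (-0.57 to -0.10), pericyte-like cells by -0.26 (-0.37 to -0.14; -0.39 without the cluster led by Rgs5) and T-like cells by -0.57 (-0.98 to -0.16). FAP-like cells went the other way, by 0.13 (0.03 to 0.23). Their direction depended on the most abundant members, since the difference was -0.032 without Mcl1 and -0.025 without Bax. That of MuSC-like cells was -0.065 without Mcl1, -0.99 without Bax and -0.72 without both. Pmaip1 gave 18 of the 344 death UMIs of MuSC-like cells labelled WT and 129 of the 393 labelled KO. In T-like cells Bcl2l11 gave 33 of 109 and 81 of 157 death UMIs. The balance without these BH3-only genes was not computed, so these differences cannot be separated from those of single genes. In endothelial-like cells the difference was -0.10 (-0.20 to 0.00) with all members, and -0.36 without Mcl1 and Bax. Tenocyte-like cells were level at 0.0034 (-0.16 to 0.17).

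**Figure D5:**
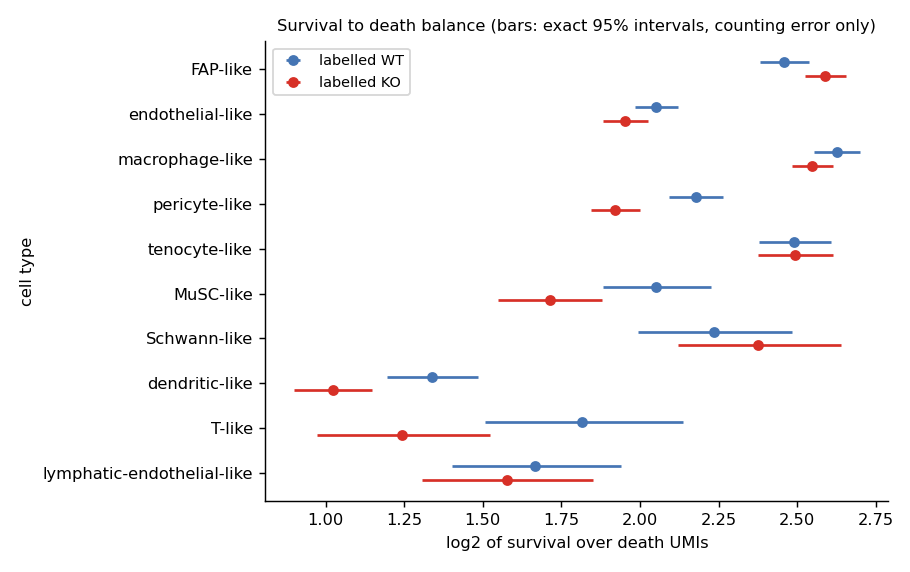
Log2 of survival over death UMIs in 10 cell types, with blue points for the library labelled WT, red for that labelled KO, and bars for exact 95% intervals of the UMI share. With Bcl2a1b the only A1 copy counted, dendritic-like cells lie lowest at 1.34 and 1.02 (1.85 and 1.67 with the other copies, then not the lowest), and pericyte-like, MuSC-like, dendritic-like and T-like points labelled KO lie to the left of those labelled WT by 0.26 to 0.57.

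Other genes of the pathway were taken from 4 lists. The 15 other BCL2 family genes gave 75 pairs of gene and type with enough UMIs, of which 7 were called higher and none lower. Over all genes, 3.48% to 10.5% were called higher and 3.39% to 8.19% lower, depending on the type. In endothelial-like cells the BH3-only gene Bik stood at 28.8 and 47.1 CPM, giving a log2 ratio of 0.71 (0.46 to 0.96). Over the types, the median log2 ratio of this list ran from -0.08 to 0.62.

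The 14 genes of the apoptosome and its executioners gave 127 pairs, of which 21 were called higher and 2 lower. Birc3, which encodes the NF-kB-induced inhibitor of apoptosis cIAP2, was called higher in 8 of the 9 types with enough UMIs. Its level was 49.2 and 89.8 CPM in FAP-like, 36.0 and 70.4 CPM in endothelial-like and 133 and 211 CPM in macrophage-like cells. Apaf1, the scaffold that cytochrome c binds, was called higher in 5 of 10 types and went from 33.3 to 67.1 CPM in the macrophage-like type, giving a log2 ratio of 1.01 (0.73 to 1.3).

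The 12 genes of p53 and its targets gave 101 pairs, with 7 called higher and 15 lower, whereas the p53 targets among the members were called higher in 4 types (Pmaip1) and lower in 1 (Bbc3). Gdf15 was called lower in 6 of 7 types, at 149 and 19.3 CPM in endothelial-like cells, giving a log2 ratio of -2.95 (-3.22 to -2.69), and at 9.94 and 2.51 CPM in FAP-like cells. Aen, a p53-induced nuclease, had 14.5 and 9.13 CPM in macrophage-like cells, where 1 gene of the list was called lower and 1 higher. Trp53inp1 went the other way from Gdf15, called higher in 5 of 9 types and lower in none. FAP-like cells had 2 genes of the list called each way.

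The early response list gave 120 pairs, of which 38 were called higher and 5 lower, and is given as a measure of cell handling and stress beside the members. The heat-shock genes led it, with Hspa1b at 492 and 1991 CPM and Hspa1a at 399 and 1511 CPM in FAP-like cells and Hspa1b at 2497 and 4590 CPM in endothelial-like cells. Zfp36 stood at 591 and 1119 CPM in FAP-like and 1349 and 2219 CPM in endothelial-like cells. In macrophage-like cells Hspa1b stood at 3109 and 4880 CPM, whereas Fosb was lower, at 1313 and 829 CPM. The calls were uneven over the list. Hspa1b was called higher in 9 of 10 types, and Hspa1a and Zfp36 in 7 each. Junb and Dusp1 were called higher in 1 type each, Fos in none, and Fosb was called lower in 2. The part of this response in the member ratios was not tested.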

How the data were processed

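Single-cell RNA-seq of injured muscle was analysed, 1 library per genotype. The authors aligned reads with Cell Ranger to mm10 (the submitters' processing notes name version 2.1.1, and the methods another), removed doublets and cells rich in mitochondrial RNA, and deposited values that are the natural log of 1 + UMIs per 10000. The table holds 13432 cells; the methods state a different number after filtering. UMI counts were recovered by undoing the log, and each of the 29528482 values above 0 lay within 0.247 of a whole number, 99% of cells within 0.0325. Barcode suffixes were matched to samples by their labels, and no column was left out. The 2000 most variable genes (loess fit, R 4.3.3) gave 30 components, integrated by a reimplementation of Harmony, and a graph of 20 neighbours was clustered at resolution 0.8 (igraph 0.11.9). Clusters were named from fixed markers; parts of the naming rule were set after the clusters were seen. Scrublet (scanpy 1.11.5) called 101 and 109 doublets, which were kept, and no other filter on cells was applied. Levels are CPM of UMIs summed over the cells of a type and library, with exact Poisson intervals; ratios carry exact binomial intervals and shares of cells exact binomial ones; intervals of balance differences are log-normal (Python 3.11.15, scipy 1.17.1). Of the 10 members, Bcl2a1b and Pmaip1 were among the variable genes used for clustering. All 10 members are named; of the other lists, up to 5 genes with the largest called fold in FAP-like, endothelial-like and macrophage-like cells, plus those named beside a result after their values were seen. The members and lists were chosen with earlier results of these data known. Scripts were tested on simulated data. Alternatives covered integration, resolution, the genes clustered on, doublets, shallow cells, thinning, averaging, pseudocount, fold and UMI minimum.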

Additional observations from a re-analysis of the deposited data

Results flagged for a closer look

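Bcl2l1 was called in opposite directions in different cell types, and this difference between types was not tested. Its log2 ratio, library labelled KO over that labelled WT, was -0.64 in endothelial-like, -0.60 in pericyte-like and -1.41 in MuSC-like cells, and 0.81 in Schwann-like cells.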

How the results depend on the processing

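The 17 called pairs were recomputed under the alternatives. Of 167 such ratios that a setting could change, none had the opposite sign and 135 were called. With means over cells the call used the fold alone. These pairs were chosen by their ratio in the same UMIs, so an unchanged sign is no independent support. With doublets left out Bcl2l1 in MuSC-like cells was no longer called (-1.28), and with thinning Bcl2l1 in Schwann-like cells gave 0.081. In tenocyte-like cells Bcl2a1b gave 0.63 with means over cells. The number of called pairs moved from 17 to 8 with cells thinned to 1000 UMIs, to 8 with 10 CPM added and to 6 at a fold of 2, and lay between 15 and 24 under the other settings. Thinning discards most UMIs of these genes, and it cut from 8 to 2 the number of members whose highest type was the same in both libraries. The balance in FAP-like cells changed sign without Mcl1 (-0.032), without Bax (-0.025) and without both (-0.19), that in macrophage-like cells with thinning (0.025) and with means over cells (0.012) and that in lymphatic-endothelial-like cells without the richest cells (0.06). Leaving out the BCL2 family genes before clustering left 9 types to compare and 17 called pairs. Leaving out the cell richest in each member, and the pericyte-like cluster with endothelial RNA, were added after seeing the data; they gave 17 and 15 called pairs, and without that cluster the pericyte-like balance differed by -0.39. No paired analysis was possible because each genotype has 1 library, and for the same reason no replicate could be left out. Depth limited Bid, Bbc3 and the types with fewer than 100 cells.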
